A study of Macaca mulatta with 16 samples.

Results

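NEURL3 (ENSMMUG00000000006) is 1 of the 22515 Ensembl genes in the count table of the fetal lungs of 16 rhesus macaques, and it was chosen on its measured rise 16 hours after intraamniotic lipopolysaccharide (LPS). Its levels and its differences involving LPS 16h are therefore a description and carry no test. It was found in the table by the 1 Ensembl ID that is paired with this symbol.

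The gene encodes neuralized E3 ubiquitin protein ligase 3, also known as LINCR, a protein with a neuralized homology repeat and a RING domain, the part that hands ubiquitin on to a target. It was described as a lung epithelial gene that inflammation can switch on, and its protein has been reported to ubiquitinate IRF7, a transcription factor of the interferon response. Other neuralized proteins are best known for the ubiquitination of Notch ligands, which starts their uptake into the cell.

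The study asked how prenatal inflammation and antenatal corticosteroids act on the fetal lung, and RNA from frozen left lung was sequenced with 1 library per animal. Preterm controls (n = 4) had no intervention and were delivered at 131 to 135 days of gestation, and term controls (n = 2) had none and were delivered at 156 and 157 days. LPS 16h animals (n = 4) received 1 mg of LPS from E. coli into the amniotic fluid at 129 to 130 days and were delivered 16 hours later, at 130 to 131 days. LPS 5d animals (n = 3) received the same dose at 126 to 129 days and were delivered 5 days later, at 131 to 134 days. LPS + Beta-Ac animals (n = 3) had the same LPS, and their dams received 0.125 mg/kg of betamethasone acetate, a slow-release corticosteroid, by intramuscular injection at 126 to 127 days, with delivery 5 days later at 131 to 132 days. Each exposure was a single dose, and whole lung was sequenced, so a change per cell and a change in how many cells of a type are present cannot be told apart.

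The LPS 16h libraries held 30596371 to 48052891 counts and the other 12 held 20169363 to 28348816, so depth moved with the group. Levels are given as CPM, counts scaled to the library total and by TMM, a factor that corrects each library for its composition. The factors were 0.857 to 0.920 in LPS 16h and 0.995 to 1.12 in the others. Differences are log2 differences of group means, fitted with limma over 19199 tested genes, and a gene is called when its Benjamini-Hochberg adjusted p is below 0.05 and its change is at least 2-fold. The lung epithelial markers EPCAM, NKX2-1, SFTPB and SFTPC were present in every group, with the lowest group mean being 66.5 CPM for NKX2-1 in LPS 16h.

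In the preterm controls the NEURL3 counts were 68 in animal 092, 79 in 101, 100 in 113 and 80 in 209, or 2.96, 3.65, 3.55 and 2.91 CPM. In LPS 16h they were 618 in animal 026, 1396 in 029, 2920 in 035 and 688 in 038, or 22.0, 37.2, 68.1 and 20.0 CPM. All 4 exposed animals lay far above all 4 controls.

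By 5 days NEURL3 was again at a low level, which belonged to the transient rise that it was chosen on. The LPS 5d animals 239, 240 and 242 held 101, 82 and 91 counts, or 3.66, 3.15 and 4.32 CPM. The LPS + Beta-Ac animals 248, 249 and 255 held 101, 105 and 134 counts, or 3.80, 3.80 and 5.16 CPM. The term controls 200 and 201 held 120 and 111 counts, or 4.41 and 3.59 CPM. The ranges of these 3 groups overlapped each other, and animal 255 was the highest of the 12 animals outside LPS 16h.

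**Figure D1:**
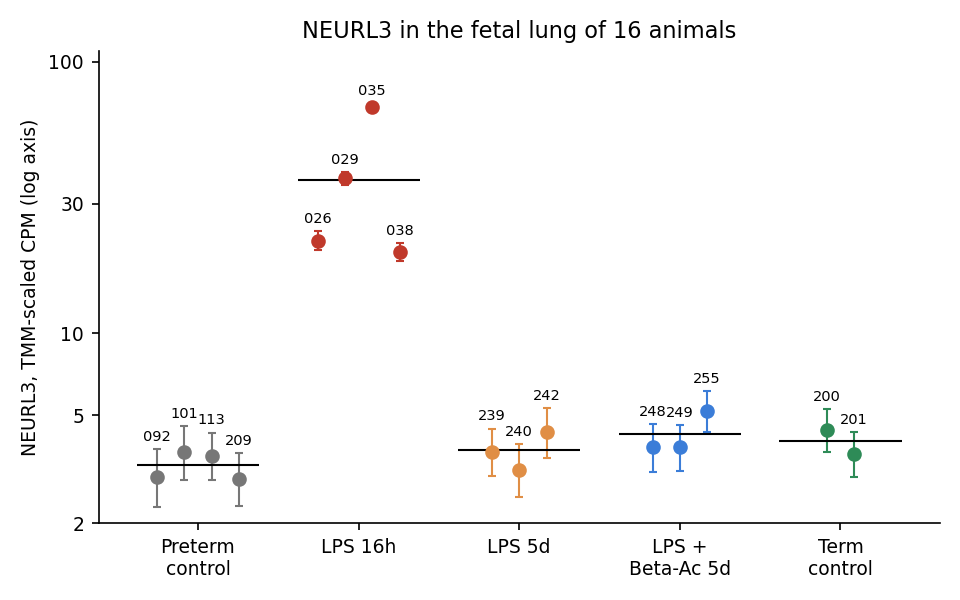
NEURL3 in TMM-scaled CPM (log axis) in each of the 16 animals, with the animal number beside each point, exact 95% Poisson intervals of the count as bars and the group mean as a black line. The 4 LPS 16h animals sit between 20.0 and 68.1 CPM and the other 12 between 2.91 and 5.16 CPM.

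The mean level was 3.27 ± 0.386 CPM (SD, n = 4) in preterm controls, 3.71 ± 0.587 (n = 3) in LPS 5d, 4.0 ± 0.58 (n = 2) in term controls, 4.26 ± 0.786 (n = 3) in LPS + Beta-Ac and 36.8 ± 22.2 (n = 4) in LPS 16h. Each step between neighbours in that order was smaller than the larger SD of the pair, and their ranges overlapped, except for the last. Groups further apart in that order did not all overlap. The LPS + Beta-Ac animals (3.80 to 5.16 CPM) lay wholly above the preterm controls (2.91 to 3.65 CPM), a difference that was not tested. The step from LPS + Beta-Ac to LPS 16h was 32.6 CPM, and the lowest LPS 16h animal was 3.88 times the highest of the other 12. Every LPS 16h animal lay above each of the others for 10.4% of all tested genes.

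The counts limited the precision of the low values more than that of the high ones. The exact 95% Poisson interval of the lowest count, 68 in preterm control 092, spanned 2.30 to 3.76 CPM, and that of the highest, 2920 in LPS 16h animal 035, spanned 65.6 to 70.6 CPM. These intervals cover counting error only. The intervals of LPS 16h animals 029 and 035 overlapped no other, so the 3.40-fold range within that group was wider than counting error. Among the other 12, the interval of LPS + Beta-Ac animal 255 (4.33 to 6.11 CPM) lay wholly above those of 5 animals, which were preterm controls 092, 113 and 209, term control 201 and LPS 5d animal 240.

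Between LPS 16h and preterm controls NEURL3 differed by 3.29 (SE 0.30) on the log2 scale, which is 9.81-fold with a 95% interval of 6.31 to 15.2. The difference was the 274th highest of the 19199 tested genes, among which 8.30% were called higher and 6.07% lower in this comparison, and the median of all genes was -0.09. Between LPS 16h and LPS 5d it differed by 3.12 (SE 0.32), or 8.69-fold, the 212th highest, where 8.02% of genes were called higher and 6.61% lower. LPS 5d against preterm controls gave 0.18 (SE 0.32) and LPS + Beta-Ac against preterm controls 0.37 (SE 0.32). These comparisons share the preterm controls or the LPS 5d animals with each other.

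The contrasts of NEURL3 that were tested were those of gestation and of added Beta-Ac. Neither is the contrast of the choice, but their baselines, the preterm controls and the LPS 5d animals, had low levels that belonged to it. Term against preterm controls gave a log2 difference of 0.29 (SE 0.37, 95% interval -0.49 to 1.06), which was not called by limma (adjusted p = 0.742), and 1.11% of genes were called higher and 0.953% lower. LPS + Beta-Ac against LPS 5d gave 0.19 (SE 0.34, 95% interval -0.54 to 0.93), which was not called either (adjusted p = 1). In that comparison 0.104% of all genes were called higher and 0% lower, while 277 of the 9633 genes with a lower mean had an unadjusted p below 0.05 in limma. As folds, the intervals of NEURL3 ran from 0.711 to 2.09 with gestation and from 0.686 to 1.90 with added Beta-Ac.

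The 4 other genes of the neuralized family had lower means in LPS 16h than in preterm controls. NEURL1, a ligase of Notch ligands, was at 1.21, 1.33, 1.14 and 1.22 CPM in LPS 16h animals 026, 029, 035 and 038. It was at 2.44, 2.59, 2.09 and 2.40 CPM in preterm controls 092, 101, 113 and 209, and the ranges did not overlap. Its log2 difference was -0.92 (SE 0.22), past the adjusted p (0.00434, limma) but short of the 2-fold limit. NEURL1B, also a ligase of Notch ligands, was at -0.38 (SE 0.25), NEURL2, an adaptor of a ubiquitin ligase complex, at -0.44 (SE 0.22) and NEURL4 at -0.13 (SE 0.10). None of the 4 was called by limma, and only NEURL1 had an unadjusted p below 0.05.

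The genes that lie next to NEURL3 were read in their order in the RefSeq annotation of assembly T2T-MMU8v2.0, another build than that of the counts, so no positions are given. Of the 10 tested neighbours, 5 on each side, 0 were called in LPS 16h against preterm controls by limma. For 4 of them the unadjusted and the adjusted p were both below 0.05, and only the 2-fold limit was missed. They were ARID5A, FER1L5, SNRNP200 and KANSL3. ARID5A, the nearest on one side and a gene for an RNA-binding protein that stabilizes inflammatory transcripts, came closest to the limit. It was at 36.0, 58.0, 58.5 and 45.2 CPM in LPS 16h animals 026, 029, 035 and 038 and at 25.8, 25.9, 25.3 and 20.3 CPM in preterm controls 092, 101, 113 and 209. The groups did not overlap, and the log2 difference of 1.00 (SE 0.17, adjusted p = 0.000283 in limma) was a fraction below 2-fold and passed it under median-of-ratios scaling (1.04).

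NCAPH, the nearest gene on the other side and a subunit of the condensin complex, differed by -0.04 (SE 0.16), a sign that turned under median-of-ratios scaling (0.0033). The other neighbours lay between -0.86 for FER1L5, a ferlin gene, and 0.27 for SNRNP200, a helicase of the spliceosome. Against LPS 5d FER1L5 alone was called, lower at -1.34 (SE 0.20, adjusted p = 9.1e-05 in limma). All 10 neighbours had smaller differences than NEURL3 at 3.29, but NEURL3 was chosen on that rise. Only 1.42% of all tested genes had a larger difference than NEURL3.

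**Figure D2:**
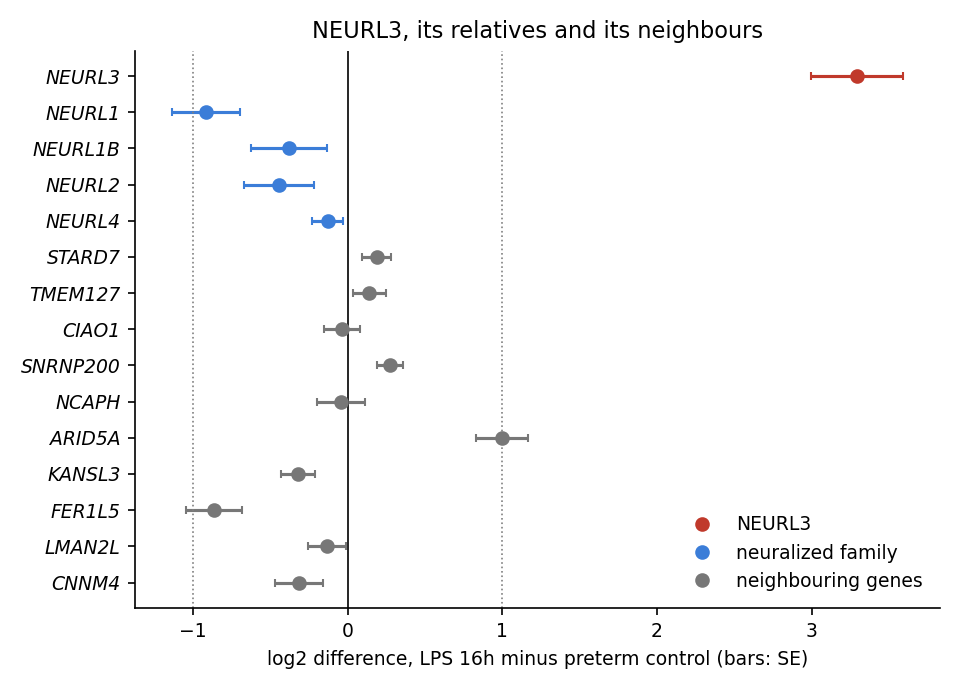
The log2 difference between LPS 16h and preterm controls, with its SE as a bar, for NEURL3, the other neuralized genes and the 10 neighbouring genes in their order along the chromosome. Dotted lines mark a 2-fold change, and NEURL3 at 3.29 lies beyond ARID5A at 1.00, with the others between -0.92 and 0.27.

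Among 34 ubiquitin ligases, deubiquitinases and their partners that act on inflammatory signalling, 12 were called higher in LPS 16h, beside 8.30% of all genes, and the median difference was 0.34. The largest were BIRC3, a ligase at tumour necrosis factor receptors, at 4.75 (SE 0.28), TNIP3 at 4.05 (SE 0.41) and TNFAIP3 at 3.69 (SE 0.16), the ubiquitin-editing brake on NF-kB. NEURL3 at 3.29 fell between TNFAIP3 and its partner TNIP1 at 2.87 (SE 0.12). RNF19B was at 2.44 (SE 0.14), TRAF3 at 2.37 (SE 0.16), USP18, which removes ISG15 from proteins, at 2.05 (SE 0.42) and TRAF1 at 1.73 (SE 0.19). The adjusted p of these 8 genes was at most 0.00138 in limma. Against LPS 5d the count was again 12 of 34, beside 8.02% of all genes.

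The Notch pathway showed no common rise. Of 26 tested genes, 2 were called higher and 3 lower, with a median of -0.33, and both counts are near those over all genes (8.30% higher and 6.07% lower). The 3 called lower were the target genes HEY1 at -1.08 (SE 0.24), HEY2 at -1.17 (SE 0.29) and HEYL at -1.10 (SE 0.12). The 2 called higher, DTX1 at 1.28 (SE 0.26) and DTX3L at 1.18 (SE 0.24), belong to the deltex ligases, and DTX3L is itself induced by interferon. Without LPS 16h animal 035 only DTX1 was called higher, and without 029 the count of lower genes was 5. HEY1 fell short of 2-fold without preterm control 101. The difference of NEURL3, 3.29, exceeded that of each of the 26 genes, but only 1.42% of all tested genes had a larger one.

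Most cytokine genes had larger differences than NEURL3. Of 21 tested cytokine and mediator genes 20 were called higher, with a median of 5.85, and of 15 genes for NF-kB subunits and its feedback 14 were, with a median of 3.08, beside 8.30% of all genes. IL1B was at 782 to 1639 CPM in LPS 16h and 0.601 to 1.79 in preterm controls, and at 6.13 to 7.26 in LPS 5d. CXCL8, the neutrophil chemokine, was at 335 to 914 CPM in LPS 16h, at 0.0462 to 0.4001 in preterm controls, at 3.61 to 5.62 in LPS 5d and at 16.7 to 28.0 in LPS + Beta-Ac. Both genes were called higher than in preterm controls in LPS 5d, with adjusted p values of 0.00486 for IL1B and 0.000292 for CXCL8 in limma, and their ranges in LPS 5d and in the preterm controls did not overlap. IL6 was at 0.0949 to 0.537 CPM in LPS 5d and 0.0364 to 0.248 in preterm controls, ranges that overlapped, and it was not called (1.23, SE 0.55, adjusted p = 0.154 in limma). These IL6 values rested on 2 to 14 counts per animal in LPS 5d and 1 to 7 in preterm controls. The NEURL3 ranges of the same animals overlapped too. NFKBIA, the inhibitor that NF-kB itself induces, was at 1313 ± 262 CPM (SD, n = 4) in LPS 16h, 208 ± 28.2 (n = 3) in LPS 5d and 96.4 ± 8.56 (n = 4) in preterm controls. Whether the return of NEURL3 at 5 days differed from that of these genes was not tested.

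Of 23 interferon response genes 14 were called higher in LPS 16h, with a median of 1.30, beside 8.30% of all genes. Without animal 035 the count was 9, and 1468 of 19171 tested genes were called higher. CXCL10 at 8.43 (SE 0.52) and CXCL11 at 6.74 (SE 0.64), chemokines of the interferon response, were followed by IRF1 at 3.08 (SE 0.22) and IRF7 at 2.25 (SE 0.38). IRF7, the reported substrate, was at 41.8, 33.2, 122 and 20.8 CPM in LPS 16h animals 026, 029, 035 and 038 and at 8.29 to 9.61 CPM in preterm controls. Animal 035 was the highest for IRF7 as for NEURL3, and 038 the lowest for both. In LPS 5d IRF7 was at 8.68 to 16.0 CPM and in LPS + Beta-Ac at 13.2 to 16.4 CPM.

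**Figure D3:**
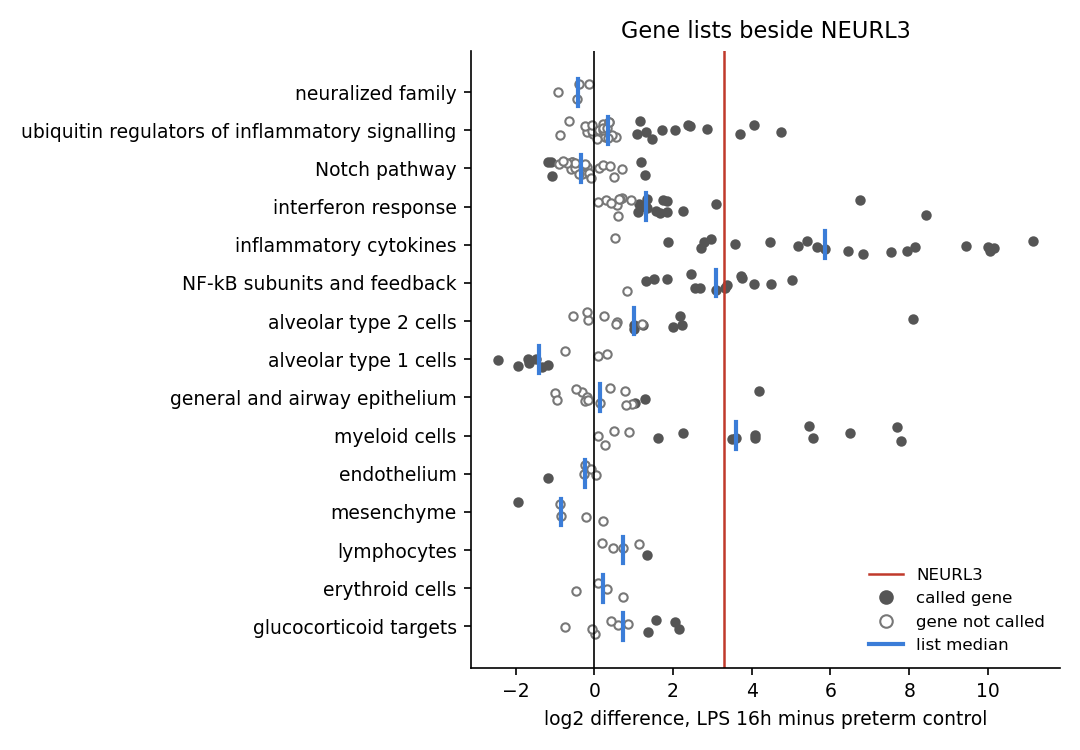
The log2 difference between LPS 16h and preterm controls of each tested gene in 15 lists (filled, called; open, not called), the median of each list in blue and NEURL3 at 3.29 as a red line. Cytokine genes with a median of 5.85 lie mostly beyond NEURL3, and the interferon list with a median of 1.30 mostly below it.

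Epithelial genes did not move together at 16 hours, where 8.30% of all genes were called higher and 6.07% lower. Of 14 genes of alveolar type 2 cells, the surfactant-making cells, 7 were called higher, with a median of 1.01. LCN2, an antibacterial protein gene that many inflamed epithelia express, was at 8.09 (SE 0.33), LAMP3 at 2.22 (SE 0.41) and ABCA3, the lipid carrier of lamellar bodies, at 2.00 (SE 0.18). SFTPB at 0.57 (SE 0.19) and SFTPC at 0.56 (SE 0.37) were not called. SFTPB passed the adjusted p (0.0261, limma) but was short of 2-fold, and SFTPC passed neither limit (adjusted p = 0.254 in limma). Of the 14 type 2 genes 11 had higher and 3 lower means. NKX2-1 was among the lower, at -0.54 (SE 0.18), past the adjusted p (0.0244, limma) but short of 2-fold. Of 10 genes of alveolar type 1 cells, the flat gas-exchange cells, 7 were called lower, with a median of -1.41, led by the water channel gene AQP5 at -2.44 (SE 0.44). AGER, another type 1 marker, was at -0.74 (SE 0.32) and not called. Of 15 general and airway epithelial genes 3 were called higher, beside 8.30% of all genes, with PIGR, the immunoglobulin transporter, at 4.19 (SE 0.42) and EPCAM at -0.32 (SE 0.16), not called.

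Most myeloid markers were higher in LPS 16h, as NEURL3 was. Of 15 such markers 11 were called higher in LPS 16h, beside 8.30% of all genes, and their summed level was 2579 to 3249 CPM there, 178 to 313 in preterm controls, 343 to 388 in LPS 5d and 615 to 1019 in LPS + Beta-Ac. MARCO was at 0 in every preterm control, while CXCR2 and MPO, neutrophil markers, were not called (0.09, SE 0.39, and 0.26, SE 0.88). In LPS + Beta-Ac the myeloid sum was above that of LPS 5d in every animal, while the NEURL3 ranges of these groups overlapped. Of 5 markers each, 1 lymphocyte gene (CD3D, 1.35) was called higher, and 1 endothelial gene (KDR, -1.17) and 1 mesenchymal gene (TCF21, -1.94) were called lower, beside 8.30% and 6.07% of all genes, so 1 of 5 is no result about these markers. The lymphocyte count was 2 under median-of-ratios scaling and without animal 029 or 092, and the mesenchymal count was 2 without preterm control 101. Of 4 erythroid genes none was called by limma, with differences of -0.45 to 0.72. Of 10 glucocorticoid target genes 4 were called higher, beside 8.30% of all genes, led by FKBP5 at 2.15 (SE 0.15). The part of myeloid cells in the level of NEURL3 was not tested.

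In LPS + Beta-Ac against LPS 5d 3 genes of all the lists were called, each higher, beside 0.104% of all genes called higher. They were 1 of 21 cytokine genes, 1 of 15 NF-kB genes and 1 of 15 myeloid markers. The 3 genes were SOD2, the mitochondrial superoxide dismutase, at 1.58 (SE 0.16), TLR4, the LPS receptor, at 1.66 (SE 0.27) and CD163, a macrophage marker, at 1.97 (SE 0.35). Fitted on these 2 groups alone 0 were called by limma, with limma-voom 1 was, and with 1 animal left out the count ran from 1 to 6, the highest without LPS + Beta-Ac animal 255. NEURL3 was at 0.19 in the same comparison.

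Likeness to NEURL3 was measured as Pearson r of log2 CPM over the 16 animals, and it mostly records the step between LPS 16h and the rest, which shared the deeper libraries. It was at least 0.9 for 493 of 19198 genes (2.57%), and the median r of all genes was -0.08. The 12 highest genes with a symbol lay between 0.961 and 0.975. PSME2, an activator subunit of the immunoproteasome, was first at 0.975, followed by TNFRSF6B, a decoy receptor, at 0.971, PSMA4, a proteasome subunit, at 0.970 and IRF1 at 0.967.

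The next were YBX3, DHX37, a ribosome-assembly helicase, LIMK2, GBP3, an interferon-induced GTPase, RRP9, a ribosomal RNA processing protein, SLC25A28, a mitochondrial iron carrier, RIPK2, the kinase of NOD signalling, and TAPBP, which loads peptides onto MHC class I. Every LPS 16h animal lay above all others for each of the 12, and for 10.4% of all tested genes. The 12 were picked by an r that mostly records this step, so their separation is no further result. PSMA4 was the flattest, at 115 to 151 CPM in LPS 16h and 65.4 to 76.4 CPM in preterm controls, a log2 difference of 0.87 (SE 0.10). TNFRSF6B was the steepest, at 60.3 to 183 CPM against 3.16 to 4.31 CPM, a difference of 4.92 (SE 0.28). With Spearman's rho in place of r only 8 genes reached 0.9.

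Median r by list was 0.917 for NF-kB genes, 0.901 for cytokines, 0.787 for interferon genes, 0.717 for myeloid markers, 0.648 for ubiquitin regulators, 0.209 for type 2 genes, -0.46 for the neuralized family and -0.82 for type 1 genes. The lowest of all lists was CLIC5, a type 1 marker, at -0.95.

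Within LPS 16h the lists differed in how they followed NEURL3. The description that follows was chosen after its values were seen and rests on 4 animals. NEURL3 ran from 20.0 CPM in 038 through 22.0 in 026 and 37.2 in 029 to 68.1 in 035. The counting intervals of 038 (18.5 to 21.6 CPM) and 026 (20.3 to 23.8 CPM) overlapped, so the order of these 2 is within counting error. Of the 23 interferon genes 21 were highest in animal 035, as NEURL3 was, which held for 19.9% of all tested genes. GBP3 was at 722, 701, 462 and 2322 CPM in 038, 026, 029 and 035, and IRF1 at 322, 258, 376 and 676 CPM. For both genes animal 035 stood far above the other 3, as it did for NEURL3. Both are among the genes picked for the highest r with NEURL3, a choice that used these animals.

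Cytokine genes did not follow NEURL3 in this way. Of the 21 cytokine genes 10 were lowest in animal 035, against 22.2% of all genes, and 0 were highest there. IL1B fell from 1639 CPM in 038 through 1177 in 026 and 916 in 029 to 782 in 035, and CXCL8 from 914 through 614 and 446 to 335 CPM. IL1A, CCL3 and TNF had this reverse order too, which 2.79% of all genes had. The order of NEURL3 itself was held by 2.69% of all genes, of the 12 most like genes by RRP9 alone, and by 0 of the 23 interferon genes. IL6, at 252, 110, 191 and 145 CPM in 038, 026, 029 and 035, followed neither.

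**Figure D4:**
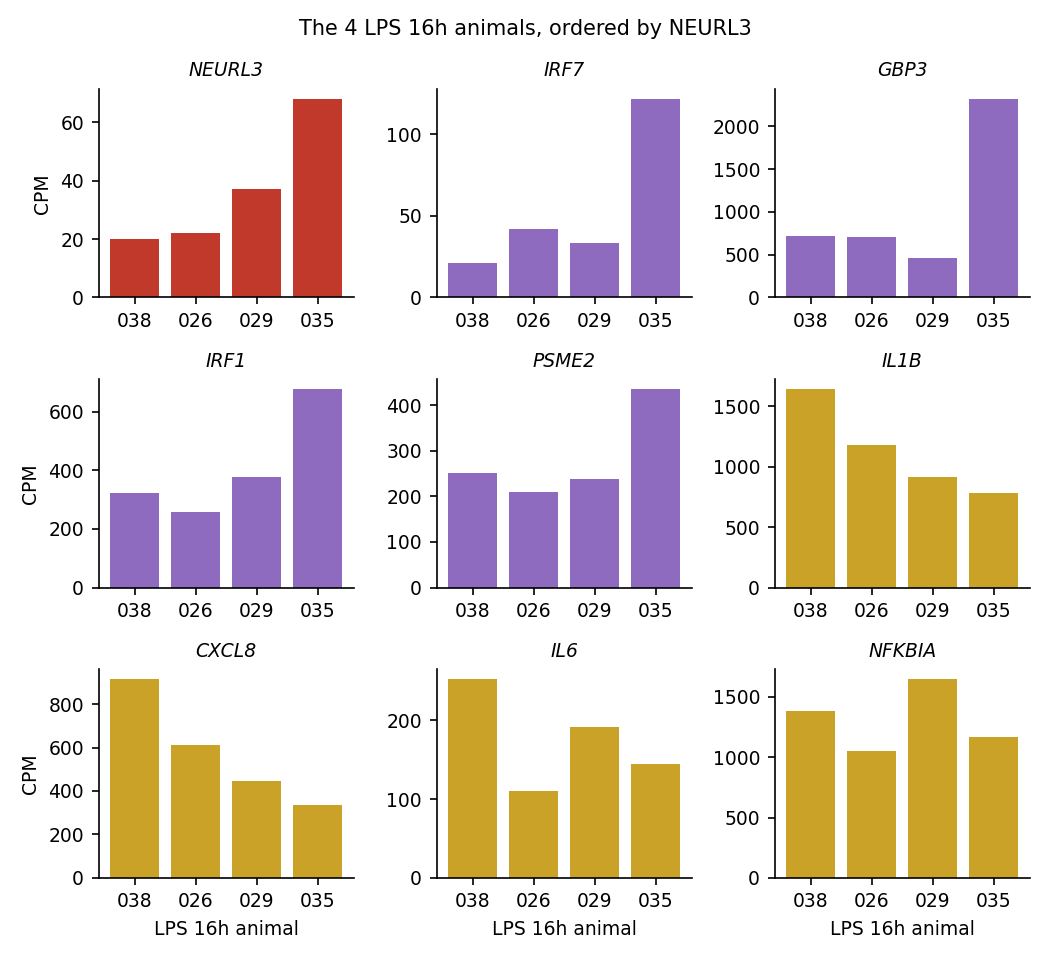
CPM (linear axes from 0, 1 bar per animal) in the 4 LPS 16h animals, ordered by NEURL3 from 20.0 to 68.1 CPM, for NEURL3 (red), the interferon-related genes IRF7, GBP3, IRF1 and PSME2 (purple) and the inflammatory genes IL1B, CXCL8, IL6 and NFKBIA (yellow). The purple genes are highest in animal 035, and IL1B and CXCL8 fall from left to right. GBP3, IRF1 and PSME2 are among the genes picked for the highest r with NEURL3, a choice that used these animals.

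Depth and cell markers differed among these animals too. Animal 035 had the deepest library at 48052891 counts and 026 the shallowest of these 4 at 30596371. The summed myeloid markers were 2579, 2612, 2761 and 3249 CPM in 038, 026, 029 and 035, the same order as NEURL3. Of the 15 markers taken singly, only 1 held that order and 1, LYZ, held its reverse. Animal 035 was the highest for 6 of them and the lowest for 3, beside 19.9% and 22.2% of all tested genes. The summed type 2 genes were 13321, 27838, 24500 and 17690 CPM in 038, 026, 029 and 035 and followed neither order. The part of depth or of myeloid cells in the spread of NEURL3 was not tested.

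Outside LPS 16h the levels of NEURL3 spanned 1.77-fold, and its co-variation with 39 epithelial and 36 inflammatory genes was tested over these 12 animals. After Benjamini-Hochberg adjustment over the 75 genes 0 passed 0.05 for r or for rho in the permutation test, and 8 had an unadjusted p below 0.05 for r. The permutation shuffled all 12 animals without regard to group, so its p values mix differences between groups with co-variation among animals. The median r was 0.25 for the epithelial and 0.36 for the inflammatory genes, of which 35 of 36 were above 0. For deviations from the group means 12 of the 36 inflammatory genes were above 0, with a median r of -0.15. Of the 39 epithelial genes 7 were, with a median of -0.29, and all 14 type 2 genes were below 0. The genes of a list were measured in the same 12 animals and are not independent, and these counts were not tested.

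PDPN, a type 1 cell gene, came nearest, with r = -0.83 (permutation p = 0.00086, adjusted p = 0.0645, n = 12) and rho = -0.86 (permutation p = 0.00072, adjusted p = 0.0540). Its r was -0.84 for deviations from the group means and -0.58 without preterm control 209 and LPS + Beta-Ac animal 255, the animals farthest from the median of NEURL3. In LPS 16h against preterm controls PDPN differed by 0.10 (SE 0.18), while NEURL3 differed by 3.29. The other type 1 genes went both ways, from r = -0.72 for EMP2 to 0.62 for AKAP5 (adjusted p = 0.301 for each in the permutation test). CXCL8 had r = 0.62 (permutation p = 0.0314, adjusted p = 0.301) and rho = 0.76 (permutation p = 0.00634, adjusted p = 0.149), and r of deviations from the group means was 0.07. The CXCL8 relation was not tested within the groups. Without the same 2 animals its r was 0.47.

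**Figure D5:**
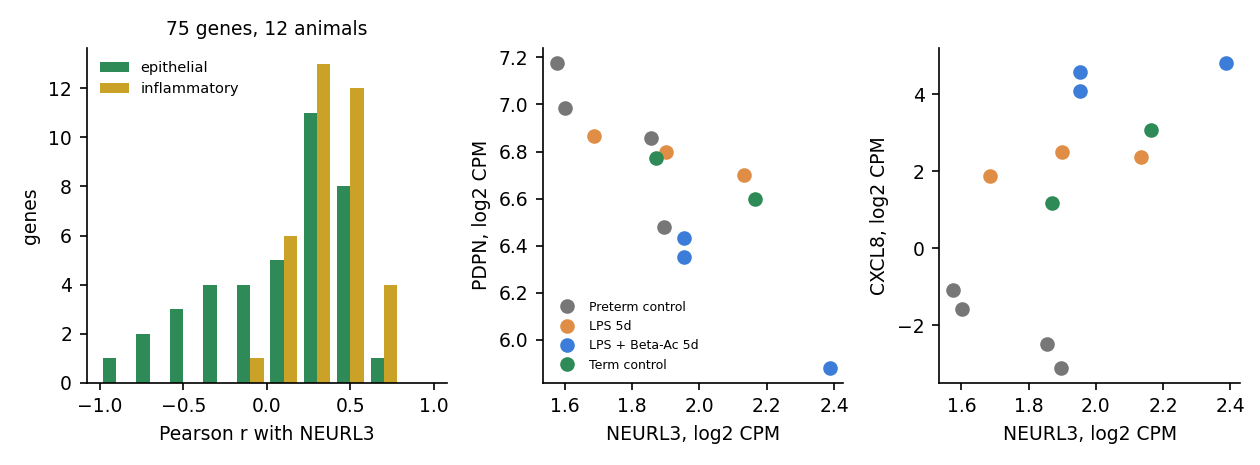
Left, number of epithelial (green) and inflammatory (yellow) genes by Pearson r with NEURL3 over the 12 animals outside LPS 16h; middle and right, log2 CPM of PDPN and CXCL8 against NEURL3, 1 point per animal, coloured by group. PDPN falls with NEURL3 (r = -0.83), and the CXCL8 points separate by group (r = 0.62 over all, 0.07 for deviations from group means).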

How the data were processed

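The authors extracted RNA from snap-frozen left lung, sequenced poly(A)-selected libraries as 75 bp paired-end reads, assigned them with kallisto to rhesus build MMUL10 and summarized them per gene with tximport. The table they deposited holds raw whole-number counts, with a row per Ensembl gene and a column per animal. These were recorded with the unit "other", because the layout of the table could not be read as counts by an automatic check, so no count model was run. Versions, annotation release and any rounding: not given in the sources used here.

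Counts were scaled with TMM (trim 30% and 5%), put on the log2 CPM scale (prior count 2) and fitted in R 4.3.3 with limma 3.58.1 (trend, robust), with 1 mean per group over 16 animals. Genes needed 0.371 CPM in 2 animals and 15 counts in total. Totals were 20169363 to 48052891 counts per animal. Correlations used Python 3.11.15 and scipy 1.17.1 with 100000 permutations, two-sided. All other p values are two-sided as well. The fit was tested on simulated data.

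Groups and animal numbers came from the labels. Each animal is a separate fetus, and the labels give no batch or sex. NEURL3, the gene lists and the tests were chosen with earlier results of these data known. Named genes were NEURL3, its relatives, its neighbours, the 12 most like, of each list the genes called in LPS 16h with the largest differences (up to 8 for ubiquitin regulators and 6 otherwise) and a few fixed genes. CCL3, TNF, PDPN, AKAP5, CXCR2, MPO, SOD2, TLR4 and CD163 fall outside this rule and were named after their values were seen. List genes IFIH1, GBP1, CXCL2, CCL4, NFKBIZ, CEBPA, KRT8 and HBB matched no ID, and DLL3, HES5 and CXCL5 were too low to test. Alternatives were median-of-ratios scaling, no filter, a prior count of 0.5, limma-voom, a fit of the compared groups alone, Spearman's rho and leaving out each animal.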

Additional observations from a re-analysis of the deposited data

Results flagged for a closer look

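The highest and the lowest animal of each group of 4 was compared with the others on the log2 CPM scale for 28 genes in the preterm controls and in LPS 16h, and 4 of 56 groups had an animal whose gap, as a share of the range, exceeded Dixon's 95% critical value. Chance gives about 1 such group in 20. NEURL3 had no such animal in either group. IL6 was high in preterm control 113 at -1.65, against -3.23 to -3.10 in the other 3. It rested on 7 counts in 113 and 1 in each of the other 3. NFKBIA was high in preterm control 092 at 6.77, against 6.52 to 6.54. ARID5A, the neighbour of NEURL3, was low in preterm control 209 at 4.35, against 4.66 to 4.70, and TAPBP was low in the same animal at 7.54, against 7.70 to 7.72.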

How the results depend on the processing

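The difference of NEURL3 between LPS 16h and preterm controls was 3.29 to 3.34 on the log2 scale under the other settings and 2.94 (without animal 035) to 3.53 (without 038) when 1 animal was left out. It was 3.12 to 3.17 and 2.76 to 3.35 against LPS 5d. LPS 5d against preterm controls gave 0.17 to 0.20 and 0.06 to 0.29, and LPS + Beta-Ac against preterm controls 0.36 to 0.39 and 0.22 to 0.46. Term against preterm controls gave 0.29 to 0.33 and 0.14 to 0.43 with adjusted p values of 0.528 to 0.914 in limma, and LPS + Beta-Ac against LPS 5d 0.19 to 0.20 and 0.05 to 0.30 with 0.993 to 1. The tested differences of NEURL3 were called under none of these settings.

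The number of list genes called in LPS 16h was 100 against preterm controls (94 to 102 over all settings) and 92 against LPS 5d (85 to 97). In LPS + Beta-Ac against LPS 5d it was 3, but 1 with limma-voom, 0 with the compared groups alone and 1 (without LPS 5d animal 239, for example) to 6 (without LPS + Beta-Ac animal 255) with 1 animal left out. ARID5A alone made the count of called neighbours 1 in place of 0 with median-of-ratios scaling, a prior count of 0.5, limma-voom or the compared groups alone, and the count was 0 to 1 with 1 animal left out. Genes with r of at least 0.9 numbered 493, between 405 and 573 with 1 animal left out, and 8 with Spearman's rho. Co-variation passed for 0 genes and, with 1 animal left out, for 0 to 1, which was PDPN without LPS 5d animal 242 (r = -0.88) or LPS + Beta-Ac animal 248 (r = -0.86).

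NCAPH turned in sign with median-of-ratios scaling (0.0033), with the compared groups alone (0.0032) and, with 1 animal left out, ran from -0.12 (without 035) to 0.0744 (without 029). CIAO1, the third neighbour on that side, turned with median-of-ratios scaling (0.0065), the compared groups alone (0.0064) and, with 1 animal left out, ran from -0.11 (without 101) to 0.0160 (without 035). The causes were not tested. DTX3L (without 035), HEY1 (without 101) and SFTPD (without 026, 029, 092 or 101) fell short of 2-fold. No paired analysis was possible because the groups have no animal number in common. Outside LPS 16h NEURL3 rested on 68 to 134 counts per animal, and term controls were only 2 animals.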
